A study of Homo sapiens with 12 samples.

Results

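Interferon response and antigen presentation genes were followed by symbol in the RNA of the human kidney cancer cell line Caki-1 and of a derivative selected for resistance to cabozantinib. The set held 46 of the 20114 gene symbols in the deposited tables, 28 interferon genes and 18 genes of antigen presentation. The membership rule used no measured value, but the members were chosen with earlier results of these data known. All 46 symbols were found. Cabozantinib blocks several receptor tyrosine kinases, MET and the VEGF receptors among them. The parental line, called wild-type in the labels, was grown in RPMI 1640 with serum. The resistant line came from growing Caki-1 in McCoy's 5A medium with 5 µM cabozantinib, raised over 2 months to 20 µM, and was then kept at 10 µM. Culture medium, drug and selection all changed at once, so their parts in any difference cannot be told apart, and the labels do not say whether the resistant cells are a clone or a pool. Each line had 2 RNA libraries. The labels do not say whether these came from separate cultures, and p-values measure only the spread between these libraries.

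Type I interferons signal through JAK kinases to a complex of STAT proteins with IRF9, which binds the interferon-stimulated response element (ISRE) and switches on antiviral genes. Interferon gamma acts through STAT dimers at the gamma-activated site (GAS) and raises antigen presentation through IRF1, NLRC5 and CIITA. Class I molecules pair a heavy chain with B2M and present peptides that the immunoproteasome cuts and TAP carries into the endoplasmic reticulum. Class II molecules need the invariant chain CD74 and are usually limited to professional antigen-presenting cells unless interferon gamma induces CIITA.

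Estimated counts summed to 10605109 and 10584085 for the parental pair of libraries and to 14664712 and 12851392 for the resistant pair. The pairs were unequal. The median absolute log2 difference between libraries of a line was 0.10 in the parental pair and 0.34 in the resistant pair over 12792 tested genes. Renal markers were mixed, with PAX8 and VIM at mean levels of 170 and 2739 TPM (transcripts scaled to a fixed library total, a level per length), while PAX2 and LRP2 had 0 counts. KRT8 and KRT18 stood at means of 299 and 248 TPM, CDH16 at 5.73, KRT7 at 5.25, CDH6 at 1.64 and CA9 at 0.27 TPM. Of the 7 renal markers tested, edgeR and DESeq2 called 1 higher in the resistant line (CDH16) and 0 lower. Of 10 blood cell markers 5 had 0 counts in all 4 libraries, among them CD3D and CD3E, and the list summed to between 0.76 and 2.09 TPM, with 0.98 and 2.09 in the parental and 0.83 and 0.76 in the resistant libraries. The 7 endothelial and stromal markers in the tables summed to 19.2 and 22.5 TPM in the parental and 8.48 and 5.65 TPM in the resistant line, with CDH5 at 0 counts throughout, and of the 3 tested edgeR called 1 lower (DCN) and DESeq2 called 2 lower (DCN and LUM). The part of such cells in the results was not tested. In bulk RNA, fewer cells of a type and less RNA per cell cannot be told apart.

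Across the set, 1 interferon gene rose in the resistant line (IFI35, 2.02-fold), 1 fell (IFI27, 6.96-fold), and no antigen presentation gene passed the test. The test was edgeR's quasi-likelihood F test on estimated counts, adjusted over all genes by the Benjamini-Hochberg method, with calls at an adjusted p under 0.05. Of 28 interferon genes, 25 had enough counts to be tested, and 23 did not pass. At an unadjusted edgeR p under 0.05, 5 of the 25 were higher and 4 lower, beside 13.4% and 13.6% of all tested genes. Of 18 antigen presentation genes, 16 were tested, with 0 called by edgeR, 1 by DESeq2, and 4 at an unadjusted p under 0.05 (3 higher and 1 lower). Among all tested genes an unadjusted p under 0.05 was reached by 3455 of 12792, 13.4% higher and 13.6% lower, so 4 of 16 is near the background, and each unadjusted count that follows is to be set against these shares. DESeq2 called 4.76% of all tested genes higher and 5.76% lower. The share of all tested genes called was 6.37%, made up of 2.96% higher and 3.41% lower, so 2 of 41 tested members is near that background. The median log2 fold change was 0.31 in tested interferon genes and 0.12 in tested antigen presentation genes, beside 0.02 in all tested genes. The 95% interval of the change lay within 2-fold either way for 22 of the 41 members, 10 interferon and 12 antigen presentation genes, beside 60.2% of all tested genes. The change itself was within 1.5-fold for 30 of 41 members, beside 75.1% of all tested genes, and within 2-fold for 36 of 41, beside 90.4%.

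**Figure D1:**
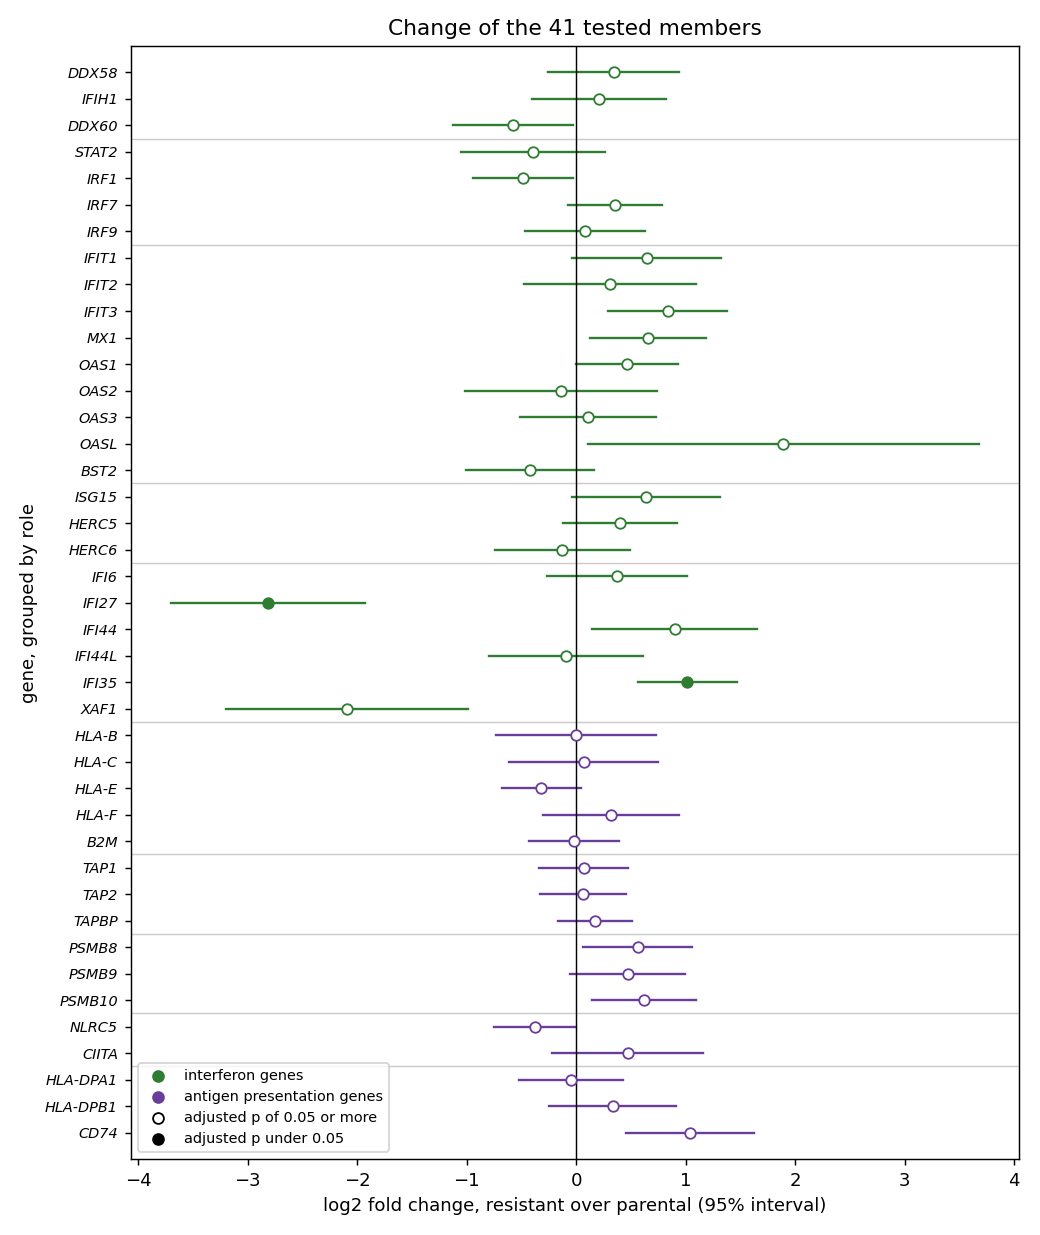
Log2 fold change of each tested member, resistant over parental, with its 95% interval; members are grouped by role from RNA sensors (top) to class II genes (bottom), and filled points passed the test. IFI27 at -2.81 and IFI35 at 1.01 are the filled points, and 28 of the 41 intervals span 0.

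IFI27, a small mitochondrial and nuclear envelope protein strongly induced by interferon alpha, stood at 13.6 and 12.2 CPM (counts scaled by library size and the TMM factor) in the parental libraries and at 1.23 and 2.49 CPM in the resistant libraries. Both resistant libraries lay far below both parental ones. Its mean fell from 12.9 ± 1.00 to 1.86 ± 0.889 CPM (SD, n = 2 per line), a log2 fold change of -2.81 ± 0.36 (SE; 95% interval -3.70 to -1.93; edgeR adjusted p = 0.0153). Its call at 0.05 held in 15 of 15 refits with another scaling, filter, tool, term or library set, with adjusted p from 1.74e-12 to 0.0193. The deposited TPM of IFI27 was 87.7 and 53.5 in the parental line, a wider gap than between the counts of the same libraries, and 6.71 and 7.98 in the resistant line. Its neighbours and paralogs on chromosome 14, IFI27L1 and IFI27L2, did not pass, with log2 fold changes of 0.51 ± 0.54 and 0.22 ± 0.20 (adjusted p = 0.582 and 0.501).

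The promoter of IFI27 is shown because IFI27 had the lowest fold change of the set. It is the 250 bases before the first RefSeq start (GRCh38.p14, chr14:94110486-94110735, plus strand), and capitals mark the 2 matches to the ISRE core, with a match to the GAS core lying across both.
IFI27: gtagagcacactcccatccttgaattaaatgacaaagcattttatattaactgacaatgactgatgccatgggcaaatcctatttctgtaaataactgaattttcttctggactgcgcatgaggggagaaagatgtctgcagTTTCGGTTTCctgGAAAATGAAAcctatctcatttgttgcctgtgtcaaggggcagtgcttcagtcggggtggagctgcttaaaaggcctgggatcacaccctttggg

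IFI35, an interferon-induced leucine zipper protein, stood at 25.7 and 25.2 CPM in the parental libraries and at 44.9 and 58.0 CPM in the resistant libraries. Both resistant values were above both parental ones. The mean rose from 25.5 ± 0.355 to 51.4 ± 9.30 CPM (SD, n = 2), a log2 fold change of 1.01 ± 0.19 (SE; 95% interval 0.56 to 1.47; edgeR adjusted p = 0.0354). The call ended without parental replicate 1 (adjusted p = 0.230) and without parental replicate 2 (0.264), at log2 fold changes of 1.02 and 0.99.

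The IFI35 promoter (chr17:43006534-43006783, plus strand, GRCh38.p14) is shown beside that of IFI27 because the pair moved in opposite directions. It held no ISRE core and 1 GAS core, in capitals, 22 bases before the start.
IFI35: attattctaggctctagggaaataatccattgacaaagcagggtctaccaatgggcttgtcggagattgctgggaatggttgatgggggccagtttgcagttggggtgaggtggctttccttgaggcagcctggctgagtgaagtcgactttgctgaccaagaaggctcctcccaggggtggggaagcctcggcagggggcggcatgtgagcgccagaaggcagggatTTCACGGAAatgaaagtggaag

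The remaining genes grouped with these as interferon-induced were IFI6, IFI44, IFI44L and XAF1, and none of the 4 passed. XAF1, an antagonist of the apoptosis inhibitor XIAP, stood at 1.75 and 1.94 CPM in the parental and 0.388 and 0.466 CPM in the resistant libraries. The groups did not overlap, and the log2 fold change was -2.09 ± 0.45 (95% interval -3.20 to -0.99), but its adjusted p of 0.0524 missed the threshold. XAF1 passed with a replicate block (adjusted p = 0.0149) and after correction for transcript length (0.0270), and not with DESeq2 (0.109). The block joins libraries that share only a replicate number. Against the parental mean, XAF1 had a log2 difference of -1.86 in resistant replicate 1 and -1.67 in resistant replicate 2. The levels of XAF1 rest on 18 and 20 counts in the parental and 6 and 6 counts in the resistant libraries. IFI44 stood at 4.58 and 3.005 CPM in the parental and 7.76 and 6.37 CPM in the resistant libraries, a log2 fold change of 0.90 ± 0.31 (adjusted p = 0.136). IFI44L and IFI6 had log2 fold changes of -0.09 and 0.37.

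**Figure D2:**
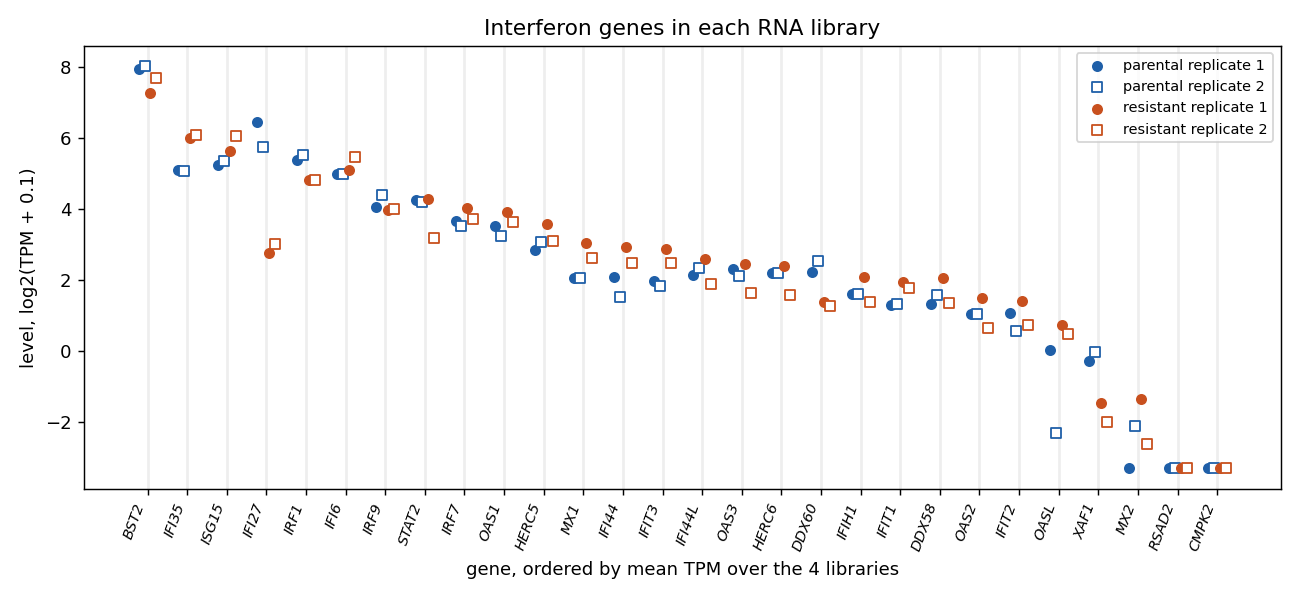
Level of the 28 interferon genes in each of the 4 RNA libraries as log2(TPM + 0.1), the offset serving the plot only; parental libraries are blue, resistant libraries orange, and genes are ordered by mean TPM. BST2 is highest at a mean of 217 TPM, RSAD2 and CMPK2 are listed at 0 in every library, and the wide gap between lines at IFI27 can be seen.

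Antiviral effectors act on viral RNA, entry or budding, and 0 of the 9 tested of 12 passed with edgeR or with DESeq2, while 3 of the 9 had an unadjusted p under 0.05, all higher in the resistant line, where 13.4% of all tested genes were. BST2, or tetherin, which holds budding virus particles at the cell surface, had the highest level of the interferon genes, at 248.6, 261, 155 and 205 TPM in parental replicates 1 and 2 and resistant replicates 1 and 2. It was lower in both resistant libraries, but the resistant pair spread widely, at 84.5 and 136 CPM against 144 and 151 CPM (log2 fold change -0.42 ± 0.24, adjusted p = 0.308). BST2 was called lower after correction for transcript length (adjusted p = 0.0138). Its log2 fold change was -0.81 without resistant replicate 2 and -0.11 without resistant replicate 1. IFIT3, which binds IFIT1 on foreign RNA, stood at 6.62 and 6.01 CPM in the parental and 11.8 and 10.7 CPM in the resistant libraries. The groups did not overlap, and the log2 fold change was 0.84 ± 0.22 (95% interval 0.29 to 1.38, adjusted p = 0.0821). IFIT1 and IFIT2 had log2 fold changes of 0.64 and 0.31, and MX1, a GTPase that blocks incoming virus, one of 0.65 ± 0.22 (adjusted p = 0.125).

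The oligoadenylate synthetases, which activate RNase L on double-stranded RNA, gave mixed values. OAS1, the most abundant of them at a mean of 12.02 TPM, stood at 13.2 and 11.4 CPM in the parental and 16.9 and 17.1 CPM in the resistant libraries (log2 fold change 0.46 ± 0.19, adjusted p = 0.188). OAS2 and OAS3 had log2 fold changes of -0.14 and 0.11, and their resistant values lay on both sides of parental ones. OASL, which lacks synthetase activity, had 10 and 1 counts in the parental and 31 and 26 counts in the resistant libraries, and its log2 fold change of 1.89 carried an SE of 0.73 (adjusted p = 0.166). OASL was called higher with a replicate block (adjusted p = 0.0182), which joins libraries that share only a replicate number. Whether it was called also depended on which parental library was left out. RSAD2 (viperin) and CMPK2, neighbouring genes that are among the most inducible by interferon, had 0 counts in all 4 libraries. A count of 0 allows a level of up to 3 counts, which is 0.194 to 0.292 CPM depending on the library. MX2 had 3 counts in the parental and 4 in the resistant pair, a parental to resistant ratio of 1.03 after scaling to library size (exact binomial 95% interval 0.151 to 6.10, counting error only). Low counts left these genes untested, and at this depth no difference was detectable.

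ISG15, a ubiquitin-like protein that is both secreted and attached to proteins, stood at 12.7 and 13.5 CPM in the parental and 15.4 and 25.4 CPM in the resistant libraries. Both resistant values were higher, with resistant replicate 2 well above resistant replicate 1 (log2 fold change 0.64 ± 0.28, adjusted p = 0.204). The log2 fold change of ISG15 was 0.96 when resistant replicate 1 was left out and 0.23 when resistant replicate 2 was. The size of the change thus depended on the resistant library that was kept. HERC5, the ligase that attaches ISG15, stood at 17.1 and 20.5 against 28.3 and 21.3 CPM (0.40 ± 0.21, adjusted p = 0.281), and its relative HERC6 had a log2 fold change of -0.13. Of these 3 genes 0 passed with edgeR or with DESeq2, and 0 had an unadjusted p under 0.05.

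Among the 4 transcription factors, 0 passed with edgeR or DESeq2 and 1, IRF1, had an unadjusted p under 0.05. IRF1, an activator of class I genes, stood at 43.1 and 46.4 CPM in the parental and 27.9 and 36.1 CPM in the resistant libraries. It was lower in both resistant libraries (log2 fold change -0.49 ± 0.19, adjusted p = 0.162), and was called lower after correction for transcript length (-0.66, adjusted p = 0.0174). The log2 fold change of IRF1 was -0.31 without resistant replicate 1 and -0.69 without resistant replicate 2. IRF9, the DNA-binding partner of STAT2, stood at 16.6 and 17.2 against 14.9 and 20.97 CPM, with overlapping groups and a log2 fold change of 0.08 ± 0.22 that was -0.11 after length correction. In TPM, IRF9 was lower in both resistant libraries, at 16.5 and 20.9 against 15.66 and 15.7. STAT2 stood at 44.3 and 42.5 against 41.7 and 24.2 CPM, so resistant replicate 1 was near the parental level and resistant replicate 2 was not (log2 fold change -0.39 ± 0.27). IRF7, which amplifies type I interferon production, had a log2 fold change of 0.35 ± 0.18 (adjusted p = 0.256).

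The 3 RNA sensors had low levels, and 0 passed with edgeR or DESeq2. DDX60, a helicase that promotes RIG-I signalling, stood at 14.9 and 13.4 CPM in the parental and 10.7 and 8.23 CPM in the resistant libraries (log2 fold change -0.58 ± 0.23, adjusted p = 0.170, unadjusted p = 0.0427). IFIH1, the long double-stranded RNA sensor MDA5, stood at 7.59 and 7.08 against 9.63 and 7.30 CPM (0.21 ± 0.25). DDX58, the sensor RIG-I itself, had a log2 fold change of 0.34 ± 0.25.

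Antigen presentation genes were more abundant than interferon genes. Mean TPM was 100 or more for 7 of 18 of them and for 1 of 28 interferon genes, BST2. B2M, the light chain of every class I molecule, ranked first of the 46 at a mean of 624 TPM, followed by HLA-B at 511, HLA-C at 268, BST2 at 217 and HLA-E at 141 TPM. The immunoproteasome genes PSMB8, PSMB9 and PSMB10 followed at 115, 107 and 101 TPM. Over the 4 libraries the ranges of neighbours in this order overlapped, except that every HLA-B value was above every HLA-C value.

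**Figure D3:**
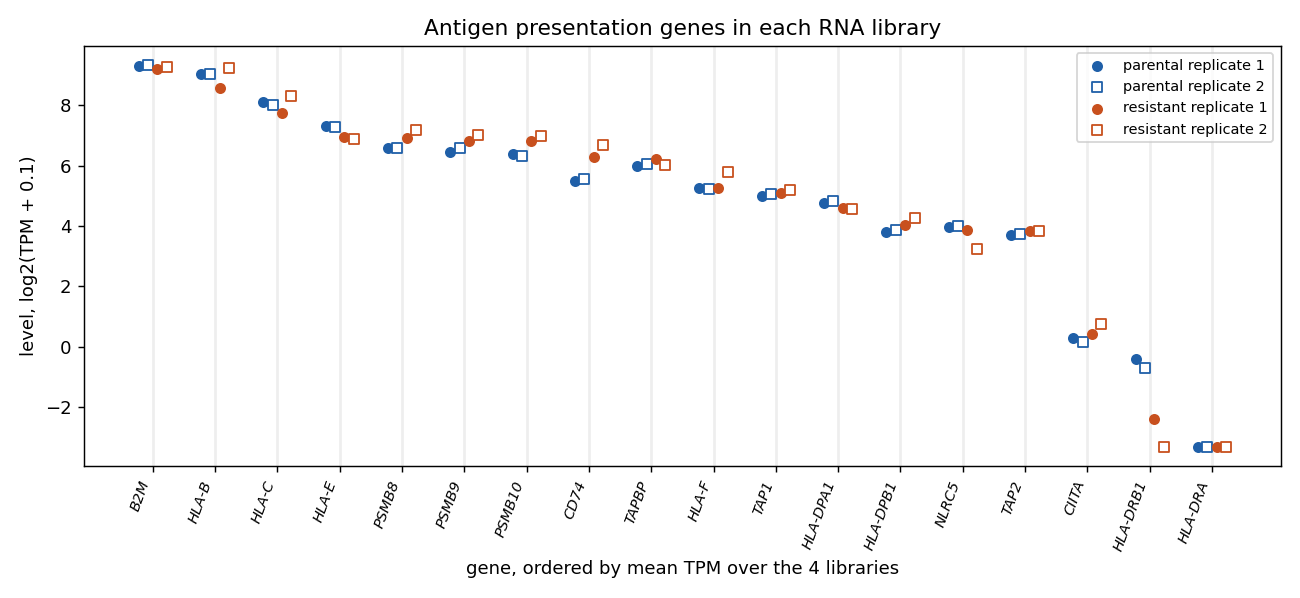
Level of the 18 antigen presentation genes in each of the 4 RNA libraries as log2(TPM + 0.1), with lines and order as in the plot of interferon genes. B2M and HLA-B lead, HLA-B of the resistant libraries falls on either side of the parental pair, and HLA-DRA is listed at 0 in every library.

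Of the 5 class I chains 0 passed with edgeR or DESeq2, and 0 had an unadjusted p under 0.05. B2M stood at 709 and 727 CPM in the parental and 627 and 791 CPM in the resistant libraries, with a log2 fold change of -0.02 ± 0.17 (95% interval -0.43 to 0.39, adjusted p = 0.954). In TPM, B2M was slightly lower in both resistant libraries, at 635 and 648 against 598 and 613. HLA-B, a classical heavy chain, stood at 528 and 525 against 361 and 691 CPM. Its parental libraries nearly coincided and lay between the resistant ones, and the log2 fold change was -0.00 ± 0.30 (95% interval -0.73 to 0.73, adjusted p = 0.998). The resistant library that was left out decided the direction. The log2 fold change of HLA-B was 0.40 without resistant replicate 1 and -0.55 without resistant replicate 2. B2M turned likewise, at 0.14 and -0.20, and so did HLA-C, at 0.44 and -0.43. In these refits the resistant line is 1 library, assumed to vary like the parental pair. HLA-E, a ligand of the natural killer receptor NKG2A, stood at 294 and 290 against 216 and 252 CPM and was lower in both resistant libraries (-0.32 ± 0.15, adjusted p = 0.226). HLA-F had a log2 fold change of 0.32 ± 0.25. HLA-B and HLA-C are close paralogs, their estimated counts were fractional in all 4 libraries because reads were shared out between genes, and the split between them is uncertain.

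The peptide transporter subunits TAP1 and TAP2 and the bridging chaperone TAPBP (tapasin) had log2 fold changes of 0.07 ± 0.17, 0.06 ± 0.16 and 0.17 ± 0.14. TAP1 stood at 62.3 and 66.7 against 60.8 and 74.4 CPM, so the resistant libraries enclosed the parental pair. TAPBP stood at 168 and 175 against 185 and 203 CPM, with no overlap. In TPM these outcomes were exchanged. TAP1 was higher in both resistant libraries, at 31.6 and 33.5 against 34.2 and 36.4 TPM. TAPBP overlapped, at 64.0 and 66.2 against 74.7 and 65.0 TPM. Their 95% intervals lay within 2-fold either way for all 3, from -0.34 for TAP1 to 0.51 for TAPBP. With edgeR and DESeq2 0 of the 3 passed, and 0 had an unadjusted p under 0.05.

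The immunoproteasome subunits, which replace catalytic subunits of the standard proteasome, were all higher in both resistant libraries, and 0 of 3 passed with edgeR or DESeq2, while 2 of the 3 had an unadjusted p under 0.05, both higher, where 13.4% of all tested genes were. PSMB8 stood at 65.4 and 66.4 CPM in the parental and 80.0 and 115 CPM in the resistant libraries (log2 fold change 0.56 ± 0.20, adjusted p = 0.149). PSMB9 stood at 34.9 and 36.3 against 40.3 and 58.3 CPM (0.47 ± 0.21, adjusted p = 0.222), and PSMB10 at 61.3 and 59.2 against 77.5 and 108 CPM (0.62 ± 0.20, adjusted p = 0.115). All 3 are short, with effective lengths of 0.37, 0.21 and 0.39 of the median gene. Resistant replicate 2 exceeded resistant replicate 1 by log2 differences of 0.52, 0.53 and 0.48. None of the 3 was called after correction for transcript length. The standard subunits they replace did not pass with edgeR, with log2 fold changes of 0.65 for PSMB5, 0.25 for PSMB6 and 0.49 for PSMB7 (adjusted p = 0.0739, 0.473 and 0.108). DESeq2 called PSMB5 higher (adjusted p = 0.0394), and PSMB5 was called in 8 of 15 refits, DESeq2 included. PSMB5 and PSMB7 were higher in both resistant libraries in CPM, and the lines overlapped for PSMB6. The TPM ratio of PSMB8 to PSMB5 was 0.812 and 0.829 in the parental and 0.677 and 0.830 in the resistant libraries, and that of PSMB10 to PSMB7 was 0.540 and 0.492 against 0.510 and 0.610. Neither ratio separated the lines. PSMB9 to PSMB6 gave 0.402 and 0.458 against 0.502 and 0.489, with both resistant values higher. These standard subunits and ratios were chosen as the known partners of the members. PSMB9 and TAP1 are transcribed away from each other from starts 487 bases apart in RefSeq, and the PSMB9 to TAP1 ratio of TPM was 2.81 and 2.87 in the parental and 3.27 and 3.57 in the resistant libraries.

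The 2 transactivators had fold changes of opposite sign. NLRC5, which drives class I genes, stood at 72.8 and 70.6 CPM in the parental and 59.1 and 51.2 CPM in the resistant libraries, lower in both (log2 fold change -0.38 ± 0.15, adjusted p = 0.181). CIITA, which drives class II genes, stood at 7.98 and 7.46 against 8.40 and 13.0 CPM, higher in both (0.47 ± 0.28, adjusted p = 0.335). On the TPM scale both had modest levels, with means of 13.9 for NLRC5 and 1.23 for CIITA. Of these, 0 passed with edgeR or DESeq2 and NLRC5 had an unadjusted p of 0.0478.

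CD74, the invariant chain that guides class II molecules to endosomes, came nearest to a call among antigen presentation genes. It stood at 39.7 and 40.6 CPM in the parental and 64.1 and 101 CPM in the resistant libraries, with no overlap and a ratio of 2.05. The log2 fold change was 1.04 ± 0.24 (SE; 95% interval 0.45 to 1.62; edgeR adjusted p = 0.0610). CD74 was called higher in 9 of 15 refits, among them DESeq2 (adjusted p = 0.00222), library totals (0.0401) and the length correction (0.0128, log2 fold change 0.81). The 9 include the replicate block (adjusted p = 0.000732), which joins libraries that share only a replicate number. They also include the refits without a resistant library, in which the resistant line is 1 library. CD74 differed from the parental mean by a log2 difference of 0.67 in resistant replicate 1 and 1.33 in resistant replicate 2. It was not called when parental replicate 1 or 2 was left out.

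Neither class II chain with enough counts passed the test. HLA-DPA1, an alpha chain, stood at 17.5 and 16.2 against 14.8 and 17.9 CPM (log2 fold change -0.05 ± 0.19, adjusted p = 0.896), and HLA-DPB1, its beta partner, at 9.25 and 7.56 against 9.57 and 11.7 CPM (0.33 ± 0.24, adjusted p = 0.408). The TPM ratio of HLA-DPA1 to CD74 was 0.594 and 0.599 in the parental and 0.309 and 0.233 in the resistant libraries, and that of HLA-DPB1 to CD74 was 0.305 and 0.305 against 0.208 and 0.187. Both ratios were lower in both resistant libraries, which describes these libraries and was not tested. HLA-DRA, the alpha chain of the DR molecule, had 0 counts in all 4 libraries. HLA-DRB1, its beta partner, had 5 and 4 counts in the parental and 1 and 0 counts in the resistant libraries, a parental to resistant ratio of 12.4 (exact binomial 95% interval 1.72 to 543, counting error only). It was too low to be tested.

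The libraries of the resistant line differed from each other in a way that moved with transcript length. Resistant replicate 2 was above resistant replicate 1 for 15 of 16 tested antigen presentation genes (median log2 difference 0.41) and for 11 of 25 interferon genes (median -0.14), where the median over all tested genes was -0.0034. Across the 25 interferon genes this difference had a Spearman correlation of -0.85 with effective length, and across the 16 antigen presentation genes -0.32. Across 12717 genes with a length it was -0.59. These are descriptions over genes that share the same 2 libraries. Effective length, taken from counts over TPM, had a median of 0.93 in interferon genes and 0.53 in antigen presentation genes, relative to the median gene. The short IFI27 and ISG15 (relative length 0.111 and 0.179) were higher in resistant replicate 2 by log2 differences of 0.93 and 0.72. STAT2 and OAS3 (1.24 and 2.32) were lower there by log2 differences, written as replicate 2 minus replicate 1, of -0.78 and -0.60. CIITA, the longest at 3.87, went against this order with 0.62. With all genes split by length into 10 equal bins, the median difference was 0.49 in the bin of shortest transcripts and -0.50 in the longest. After correction for length, the calls were IFI35 and IFIT3 higher, BST2, IFI27, IRF1 and XAF1 lower among interferon genes, and CD74 higher among antigen presentation genes. The correction called 995 higher and 1181 lower among the 12717 genes with a length, where the main test called 379 and 436 of 12792. The member calls after correction are to be set against that larger background. What sets this difference between the libraries was not tested.

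**Figure D4:**
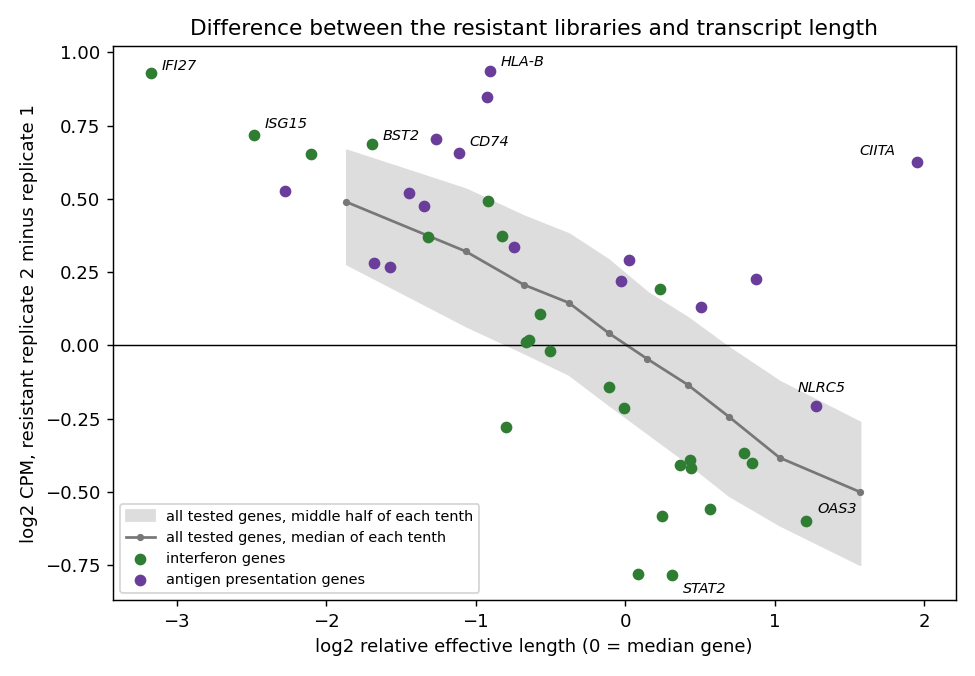
Log2 CPM of resistant replicate 2 minus resistant replicate 1 against log2 relative effective length (0 is the median gene); points are the 41 tested members, the line is the median and the band the middle 50% of each of 10 length bins of all tested genes. Short members such as IFI27 and ISG15 lie high and long ones such as STAT2 and OAS3 lie low, while CIITA stands off the line.

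In CPM the groups did not overlap for 18 of 25 interferon genes, with 12 above and 6 below the parental libraries, and for 9 of 16 antigen presentation genes, with 7 above and 2 below. These counts depend on the scale, and in TPM some members fell otherwise, TAP1, TAPBP, B2M and IRF9 among them. Among all tested genes 30.9% were above and 29.7% below in the same sense. The shares of interferon genes above, antigen presentation genes above, and both sets below can be read against these percentages, and no test was made of them.

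The ISRE core (GAAANNGAAA, either strand) was looked for in RefSeq promoter windows of 300 bases, 250 before and 50 after each start, in GRCh38.p14. Windows were matched for 37 of 46 members, 23 interferon and 14 antigen presentation genes, several with more than 1 start. It was in a window of 14 of 23 interferon genes (60.9%) and 7 of 14 antigen presentation genes, beside 4.38% of 27305 genes with a window. The GAS core (TTCNNNGAA, which reads the same on both strands and may overlap the ISRE core) was in 8 of 23 and 2 of 14, beside 9.38%. The CCAAT box (CCAAT, either strand), part of the class I and class II promoter module, was in 10 of 23 and 9 of 14, beside 39.7%. It was in all 4 matched class I genes, B2M, HLA-B, HLA-C and HLA-F. A match of letters is a description of the window and not a bound site.

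The following windows of 30 bases are shown because they carry the same core on either strand in genes of different roles that did not pass the test. Capitals mark only the match nearest the start. In BST2, ISG15 and B2M a further match begins earlier in the window and overlaps the marked one. The windows come from BST2 (chr19:17405735-17405764, minus strand), ISG15 (chr1:1013380-1013409, plus), IFIT3 (chr10:89327865-89327894, plus), B2M (chr15:44711369-44711398, plus), TAP2 (chr6:32838778-32838807, minus) and PSMB10 (chr16:67936852-67936881, minus), each written 5′ to 3′ on the strand of the gene.
BST2: ctgggaaactGAAACTGAAAacctaattaa
ISG15: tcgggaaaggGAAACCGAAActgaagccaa
IFIT3: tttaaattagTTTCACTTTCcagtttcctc
B2M: ctaagaaaagGAAACTGAAAacgggaaagt
TAP2: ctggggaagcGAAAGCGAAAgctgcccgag
PSMB10: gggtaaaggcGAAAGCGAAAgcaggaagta

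Genes around the set were read from lists of the pathway. Of 16 interferons, receptors and JAK kinases 10 were tested, and 0 passed with edgeR, while 1, JAK1, was lower with DESeq2 and 3 had an unadjusted p under 0.05. JAK1, the kinase shared by all interferon receptors, stood at 397 and 396 CPM in the parental and 295 and 169 CPM in the resistant libraries, lower in both (log2 fold change -0.77 ± 0.27, edgeR adjusted p = 0.137, DESeq2 adjusted p = 0.0306). TYK2, the kinase of the type I receptor, had a log2 fold change of 0.22 ± 0.14. Of the 7 interferon genes in this list, which holds no IFNA gene, 6 were at or near 0 and IFNE was not, named here after their values were seen. IFNK, IFNL1, IFNL2, IFNL3 and IFNG had 0 counts in all 4 libraries, IFNB1 had 2 counts in parental replicate 1 and 0 elsewhere, and IFNE had 27 to 44 counts in every library and a mean of 3.22 TPM (log2 fold change 0.03 ± 0.32).

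Of 9 tested feedback inhibitors 1 rose and 0 fell, with edgeR and with DESeq2. An unadjusted edgeR p under 0.05 was reached by 3 of the 9, all higher, where 13.4% of all tested genes were. USP18, which removes ISG15 from proteins and blocks the type I receptor, rose from 4.97 and 5.04 to 10.6 and 12.9 CPM, with no overlap (log2 fold change 1.23 ± 0.24, edgeR adjusted p = 0.0401). Its call ended without parental replicate 1 or 2 (adjusted p = 0.226 and 0.225) and with limma-trend on TPM (0.0733 and 0.0790). Of 14 tested genes of nucleic acid sensing 0 passed with edgeR or DESeq2, and 3 had an unadjusted p under 0.05. The most abundant, the DNA sensor IFI16 and the RNA editor ADAR, had log2 fold changes of 0.08 ± 0.14 and -0.26 ± 0.21.

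Of 41 tested further interferon-induced genes 2 rose and 1 fell with edgeR, and 38 did not pass. At an unadjusted edgeR p under 0.05, 12 of the 41 were higher and 2 lower, beside 13.4% and 13.6% of all tested genes. DESeq2 called 6 higher and 1 lower, adding APOL6, GBP4, IFITM1 and IFI30 as higher (adjusted p from 0.0225 for IFITM1 to 0.0401 for GBP4). SP110, a nuclear body protein, stood at 12.9 and 14.0 CPM in the parental and rose to 35.8 and 26.95 CPM in the resistant libraries (log2 fold change 1.22 ± 0.21, edgeR adjusted p = 0.0292). PARP10, a mono-ADP-ribosyltransferase, rose from 80.9 and 81.4 to 122 and 138 CPM (0.68 ± 0.14, adjusted p = 0.0498). PLSCR1, a membrane protein that restricts virus entry, fell from 53.9 and 58.4 to 33.0 and 24.0 CPM (-0.98 ± 0.20, adjusted p = 0.0462). All 3 calls ended when either parental library was left out, at adjusted p of 0.133 and 0.0905 for SP110, 0.602 and 0.602 for PARP10, and 0.136 and 0.256 for PLSCR1. All 3 also missed the threshold with limma-trend on TPM (adjusted p from 0.0773 for PLSCR1 to 0.120 for PARP10). PARP10 missed it as well with DESeq2 size factors, both other filters and limma-voom (0.0521 to 0.0618), and PLSCR1 with library totals, the stricter filter and limma-voom (0.05002 to 0.0648).

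Of 24 tested further antigen presentation genes 0 rose and 1 fell with edgeR, while 6 were higher and 1 lower at an unadjusted p under 0.05. DESeq2 called 3 higher and 1 lower, adding PSMB5, RFXANK (adjusted p = 0.0112) and HLA-DMB (0.0445) as higher. CD1D, a class I-like molecule that presents lipids to natural killer T cells, fell from 35.5 and 36.7 to 17.5 and 15.7 CPM (log2 fold change -1.12 ± 0.16, edgeR adjusted p = 0.0208), and its call ended without parental replicate 1 or 2 (0.0809 and 0.114) and with limma-trend on TPM with a pseudocount of 0.1 (0.0532). Of 4 tested checkpoint ligands 0 passed with edgeR, 1 was lower with DESeq2 and 2 had an unadjusted p under 0.05. PVRL2, also named NECTIN2, a ligand of TIGIT, stood at 176 and 167 CPM in the parental and 75.8 and 112 CPM in the resistant libraries, lower in both (-0.87 ± 0.21, edgeR adjusted p = 0.0689, DESeq2 adjusted p = 0.00541). CD276 had a log2 fold change of -0.35 ± 0.14 (adjusted p = 0.177).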

How the data were processed

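RNA was measured in 2 parental and 2 resistant libraries, grouped by their titles. The authors deposited RSEM estimated counts and TPM per gene symbol for 20114 symbols. The submitters' processing notes name 3 tools (DESeq2 1.40.2, RSEM, STAR) and 2 builds (hg19, GRCh38), without roles. Of the estimated counts 3.16% were fractional, and all were rounded. The 4 peak lists and 4 DNA inputs were not used here. Genes were filtered with filterByExpr, which left 12792, scaled by TMM and tested with edgeR 4.0.16 (R 4.3.3), with the line as the only term. SE and 95% intervals come from the F statistic. The pipeline was run on simulated data in which all libraries had the same dispersion and no length trend. That run does not cover the wider spread of the resistant pair or its length trend. Alternatives used DESeq2 1.42.0, limma 3.58.1, 2 other scalings, 2 filters, TPM with pseudocounts of 1 and 0.1, sample quality weights, a replicate block, a length correction (lowess trend, span 0.3), a stricter threshold (0.01) and the omission of each library in turn. Promoters were searched with Python 3.11.15. Log2 differences between libraries used a prior count of 2.

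Members and lists were chosen with earlier results of these data known. Named genes were every member past the threshold, any member at 0 in one line with 10 or more counts in the other, the 2 members of each role with the highest mean TPM, and in each surrounding list the 2 largest rises and 2 largest falls that passed, or where none passed the 2 genes with the highest mean TPM. The rule left the other members to counts and ranges. Those named, and PSMB5, PSMB6, PSMB7, IFI27L1, IFI27L2, the interferons, CDH16, DCN, LUM and the genes that only DESeq2 called, were chosen after their values were seen.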

Additional observations from a re-analysis of the deposited data

How the results depend on the processing

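Depth limits the genes with few counts, and with 2 libraries a line the precision rests on the spread within pairs. Counts of calls (main 379 higher and 436 lower among all genes, 1 and 1 among interferon genes, 0 and 0 among antigen presentation genes, 3 and 2 among the surrounding lists) moved most with the libraries included. Leaving out each library gave 141 to 3374 higher and 264 to 3479 lower genes, 0 to 5 higher and 1 to 5 lower interferon genes, 0 to 10 higher and 0 to 5 lower antigen presentation genes, and 0 to 34 higher and 0 to 24 lower surrounding genes. With a replicate block the counts were 860 and 1020, 2 and 2, 1 and 0, and 13 and 4 in that order. The replicate numbers share only a number (correlation of same-numbered deviations -0.0464), so the block does not pair the libraries. With the length correction they were 995 and 1181, 2 and 4, 1 and 0, and 10 and 6. With DESeq2 they were 609 and 737, 1 and 1, 1 and 0, and 10 and 4, and with sample quality weights 790 and 819, 1 and 1, 2 and 0, and 10 and 4. At a threshold of 0.01 they were 24 and 73, and 0 in every list. With library totals, which moved the median of all genes from 0.02 to 0.10, they were 531 and 373, 1 and 1, 1 and 0, and 7 and 1. TPM with a pseudocount of 1 gave 242 and 282, with 1 higher antigen presentation gene, and with a pseudocount of 0.1 gave 216 and 243, with 1 higher antigen presentation gene and 2 and 1 surrounding genes. The filter at a mean log2 CPM of 2 gave 269 and 291 and 2 and 1 surrounding genes. limma-voom also gave 2 and 1, while DESeq2 size factors and no filter gave 2 and 2 surrounding genes.

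Of 496 refitted values of the 31 named genes 403 kept direction and side, 44 passed in addition, 35 no longer passed and 14 changed sign, none of them in a gene that passed in the main test. The sign changes were as follows, each a log2 fold change. With library totals B2M was 0.059, HLA-B 0.069 and HLA-DPA1 0.032. IRF9 was -0.23 and -0.24 with TPM and -0.11 with the length correction, and HLA-B was 0.00161 with the filter at a mean log2 CPM of 2. Leaving out each library gave ranges of -0.00281 to 0.38 for IFIH1, -0.19 to 0.31 for IRF9, -0.094 to 0.21 for TAP1, -0.20 to 0.14 for B2M, -0.55 to 0.40 for HLA-B and -0.19 to 0.088 for HLA-DPA1 (0.0036 without parental replicate 1). The cause was not tested.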
